A study of Mus musculus with 12 samples.

Results

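The FOS and JUN family comprises Fos, Fosb, Fosl1, Fosl2, Jun, Junb and Jund, and all 7 genes had 1 probe set each among the 16539 probe sets of the array table. They were taken by gene symbol, and 6 of them were among the 9496 genes that were bright enough to be tested. Fosb, with a mean of 4.74 over the 12 arrays, lay below the filter of 5.57 on the log2 scale and is described by its levels alone. RNA from primary hepatocytes of 8-week-old male C57BL/6J mice was hybridised to Affymetrix Mouse Genome 430 2.0 arrays in 4 groups of 3. These were RNA precipitated with an antibody against CNOT6L from wild-type cells (WT IP), the same precipitation from Cnot6l knockout cells (KO IP), total RNA of the knockout cells (KO Input) and total RNA of the wild-type cells (WT Input). CNOT6L is one of the deadenylases of CCR4-NOT, the complex that trims mRNA poly(A) tails and so starts mRNA decay, and the knockout precipitate was the negative control. Every preparation was split into its input and its precipitate. The labels say neither how the Cnot6l allele was made nor whether each replicate number was a separate animal, so the p-values measure the spread between these samples. The hepatocytes of both genotypes carried no other stated treatment.

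FOS and JUN proteins are basic leucine zipper transcription factors. A FOS protein needs a JUN partner to bind DNA, JUN proteins also pair among themselves, and the resulting dimers, called AP-1, bind short sites in the promoters and enhancers of genes for growth, stress and inflammation. Fos, Fosb, Jun and Junb are immediate early genes, transcribed within minutes of a stimulus, and the mRNAs of Fos and Jun carry AU-rich elements that recruit deadenylases and make them short-lived. In the liver, AP-1 genes are induced by partial hepatectomy and by the enzymatic isolation of hepatocytes.

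Promoters of 6 of the 7 members were found in the RefSeq table for GRCm38.p6, each spanning 250 bases before the transcription start and 50 after it. Those of Fos and Jun are shown because the levels of these founding partners behaved differently among the input arrays, as given below. The Fos promoter is at chr12:85473640-85473939 on the plus strand and the Jun promoter at chr4:95052173-95052472 on the minus strand. Capitals mark matches, on either strand, to TGACGTCA (the cyclic AMP response element), TGACATCA (an AP-1 site of the Jun promoter), TGACTCA (the AP-1 consensus) and TGACG (the core shared with the first of these).
Fos: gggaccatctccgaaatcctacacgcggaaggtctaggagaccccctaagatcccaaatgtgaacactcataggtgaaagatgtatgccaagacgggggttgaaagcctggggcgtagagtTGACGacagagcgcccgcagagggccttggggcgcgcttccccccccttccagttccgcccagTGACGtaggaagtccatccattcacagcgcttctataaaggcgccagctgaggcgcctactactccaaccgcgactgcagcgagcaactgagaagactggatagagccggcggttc
Jun: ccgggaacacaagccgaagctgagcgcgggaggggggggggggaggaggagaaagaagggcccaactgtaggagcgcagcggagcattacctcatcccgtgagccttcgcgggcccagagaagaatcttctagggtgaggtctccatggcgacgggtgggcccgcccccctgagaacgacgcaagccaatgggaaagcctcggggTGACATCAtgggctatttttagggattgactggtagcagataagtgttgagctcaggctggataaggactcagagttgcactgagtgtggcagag
Fos held TGACG at positions -129 and -66 from the transcription start, and Jun held TGACATCA at -45. TGACG also occurred in Fosb at -60 and in Junb at -106, and in 20.8% of all 32851 promoters in the table, and TGACATCA in 3.62% of them. TGACGTCA, found in 1.79% of promoters, and TGACTCA, found in 5.2%, matched none of the 6. A match of letters is a description and not a measured binding site, and whether these motifs bear on the levels was not tested.

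The SD of the values on an array was 2.29 to 2.42 in WT IP and 2.19 to 2.37 in KO IP. It was wider in the inputs, at 2.54 to 2.61 in KO Input and 2.53 to 2.59 in WT Input. Quantile normalization is among the alternatives given below. All 12 array medians fell within 6.31 to 6.45 (log2), so a value is relative to its own array and says nothing of how much RNA was precipitated. In such bulk RNA, fewer cells of a type and less RNA per cell cannot be told apart. The 6 measured hepatocyte markers averaged 11.5 to 12.9 per array, and the marker lists of Kupffer, sinusoidal endothelial, stellate and bile duct cells averaged 4.96 to 6.29 per array, with WT IP and KO IP overlapping for each list. Within the Kupffer list, Cd68, a lysosomal glycoprotein gene of macrophages, averaged 10.61 ± 0.35 in WT IP, 10.87 ± 0.14 in KO IP, 11.89 ± 0.38 in KO Input and 11.77 ± 0.24 in WT Input (SD, n = 3 each). With the preparation as a block it was called lower in WT IP than in WT Input (-1.15, adjusted p = 0.0202) and in KO IP than in KO Input (-1.02, adjusted p = 0.0304), where 4.61% and 5.28% of all genes were called lower, and it was not called without a block (adjusted p = 0.186 and 0.274). All other genes of the Kupffer list went the other way, with a higher mean in the precipitate than in the input of both genotypes. Of these, Csf1r passed the filter (0.24 in wild type and 0.42 in knockout) and was not called in these comparisons. Adgre1, Clec4f, Marco, Vsig4 and Cd5l lay below the filter. The added bacterial poly-A controls averaged 10.1 to 12.3 in WT IP, 10.2 to 12.6 in KO IP, 4.83 to 8.17 in KO Input and 4.84 to 8.11 in WT Input. The 3′ signal of Gapdh exceeded its 5′ signal by 0.84 to 2.34 in WT IP, 0.88 to 1.93 in KO IP, 0.03 to 0.27 in KO Input and -0.01 to 0.40 in WT Input. Cd68 and these controls differed between precipitates and inputs in both genotypes, and their part in the IP against input values was not tested. Cnot6l itself read 9.11, 10.65 and 8.85 in WT IP, 9.29, 10.63 and 9.46 in KO IP, 9.12, 9.23 and 9.34 in KO Input, and 8.44, 9.51 and 9.11 in WT Input. Its single probe set was not lower in the knockout arrays, and whether it lies in the deleted part is not stated, so the directions below rest on the genotype labels.

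**Figure D1:**
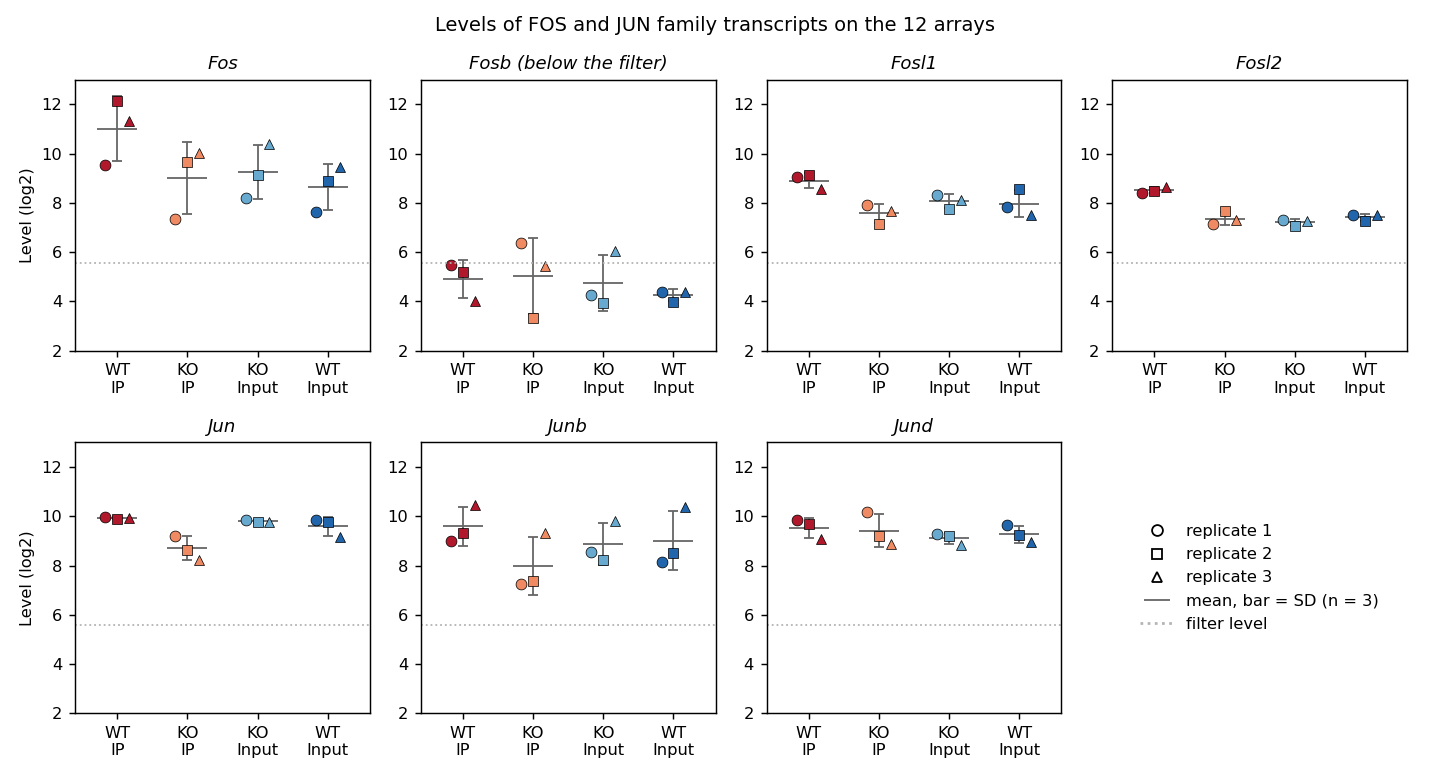
Level of each member on the log2 scale (vertical axis) in WT IP, KO IP, KO Input and WT Input, with 1 point per array, its shape giving the replicate number, and the mean with SD bars (n = 3). WT IP has the highest mean for the 6 tested members, with means of 8.52 to 11.01, and Fosb lies mostly below the filter level drawn as a dotted line.

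Fos encodes the founding FOS protein, which carries a strong activation domain. It read 9.55, 12.14 and 11.33 in WT IP, 7.34, 9.65 and 10.02 in KO IP, 8.22, 9.14 and 10.41 in KO Input, and 7.64, 8.88 and 9.47 in WT Input. All 3 wild-type precipitates lay above all 3 wild-type inputs, while the knockout precipitates overlapped their inputs and also overlapped the wild-type precipitates. Within preparations, the IP minus input difference was 1.91, 3.26 and 1.86 for the wild-type cells, against -0.87, 0.51 and -0.38 for the knockout cells. Specific enrichment, the wild-type difference minus the knockout difference, was 2.60 ± 1.20 (SE), a 6.04-fold value, at the 99.9th percentile of all genes tested. It was not called by limma (adjusted p = 1.0), nor with the preparation as a block (adjusted p = 0.161), and was called when the block was the replicate number within each fraction (IP or input), at an adjusted p of 0.0433. By number, the values were 2.79, 2.75 and 2.25, all positive. With 1 array left out the value ran from 1.77, without KO IP replicate 1, to 3.32, without WT IP replicate 1.

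Fosl1 and Fosl2 encode FRA1 and FRA2, FOS proteins that lack the strong activation domain of FOS. Fosl1 read 9.03, 9.12 and 8.55 in WT IP, 7.90, 7.16 and 7.68 in KO IP, 8.32, 7.76 and 8.14 in KO Input, and 7.83, 8.57 and 7.49 in WT Input. WT IP lay above KO IP and KO Input without overlap and touched the range of WT Input, whose highest array was slightly above the lowest WT IP array. The IP minus input difference was positive in the 3 wild-type preparations (1.20, 0.54 and 1.06) and negative in the 3 knockout preparations (-0.42, -0.60 and -0.46). Fosl2 read 8.40, 8.49 and 8.66 in WT IP, 7.13, 7.65 and 7.30 in KO IP, 7.29, 7.04 and 7.28 in KO Input, and 7.50, 7.26 and 7.50 in WT Input. Its wild-type precipitates lay above every array of the other 3 groups, which overlapped one another. The Fosl2 difference within preparations was 0.90, 1.23 and 1.16 for the wild-type cells, against -0.16, 0.61 and 0.01 for the knockout cells. Specific enrichment was 1.43 ± 0.49 (SE) for Fosl1 and 0.95 ± 0.36 for Fosl2, at percentiles 98.4 and 95.2 of all genes tested, and neither was called (adjusted p = 1.0 for both).

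Fosb, whose shorter splice form accumulates after repeated stimulation in the brain, read 5.49, 5.20 and 4.02 in WT IP, 6.36, 3.34 and 5.45 in KO IP, 4.26, 3.93 and 6.05 in KO Input, and 4.39, 3.96 and 4.39 in WT Input. The 4 groups overlapped and 2 of the 12 arrays lay above the filter level. The table holds no detection calls, so whether the probe set was above background is not known.

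Jun encodes the founding JUN protein, the partner of FOS and the substrate of the JNK kinases. It read 9.97, 9.88 and 9.93 in WT IP, 9.22, 8.65 and 8.24 in KO IP, 9.87, 9.78 and 9.75 in KO Input, and 9.87, 9.78 and 9.16 in WT Input. The wild-type precipitates lay just above the arrays of both inputs, and the knockout precipitates below the wild-type precipitates and below the knockout inputs, without overlap. The differences within preparations were 0.10, 0.10 and 0.77 for the wild-type cells, against -0.65, -1.13 and -1.51 for the knockout cells. The specific enrichment of 1.42 ± 0.43 (SE, 2.68-fold) was therefore made up of a mean of 0.32 in wild type and a mean of -1.10 in knockout. It was not called (adjusted p = 1.0). In KO IP against KO Input, the Jun value of -1.10 ± 0.31 had an adjusted p of 0.252 by limma and was called lower with the preparation as a block (adjusted p = 0.0399) and with the number as a block (adjusted p = 0.0167).

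Junb encodes a weaker activator that can oppose JUN. It read 8.98, 9.33 and 10.47 in WT IP, 7.26, 7.36 and 9.33 in KO IP, 8.55, 8.24 and 9.82 in KO Input, and 8.16, 8.50 and 10.39 in WT Input. The 4 groups overlapped, with replicate 3 far above the others in each. Within preparations the IP minus input difference was 0.82, 0.82 and 0.08 for the wild-type cells, against -1.29, -0.88 and -0.50 for the knockout cells, so the 2 genotypes lay on opposite sides of 0. Specific enrichment was 1.46 ± 1.01 (SE; adjusted p = 1.0). The knockout value of -0.89 had an adjusted p of 0.698 by limma, 0.0630 with the preparation as a block and 0.0359 with the number as a block.

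Jund encodes the JUN protein that most tissues express without stimulation, and in the mouse it can restrain proliferation. It read 9.84, 9.67 and 9.08 in WT IP, 10.18, 9.20 and 8.87 in KO IP, 9.26, 9.21 and 8.83 in KO Input, and 9.63, 9.22 and 8.95 in WT Input. All 4 groups overlapped. Its specific enrichment was -0.05 (95% interval -1.20 to 1.09), at the 37.4th percentile of all genes, with same-number values of -0.71, 0.46 and 0.09. The WT IP minus KO IP difference was 0.11 (95% interval -0.70 to 0.92). Whether Jund differed from the other members was not tested.

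**Figure D2:**
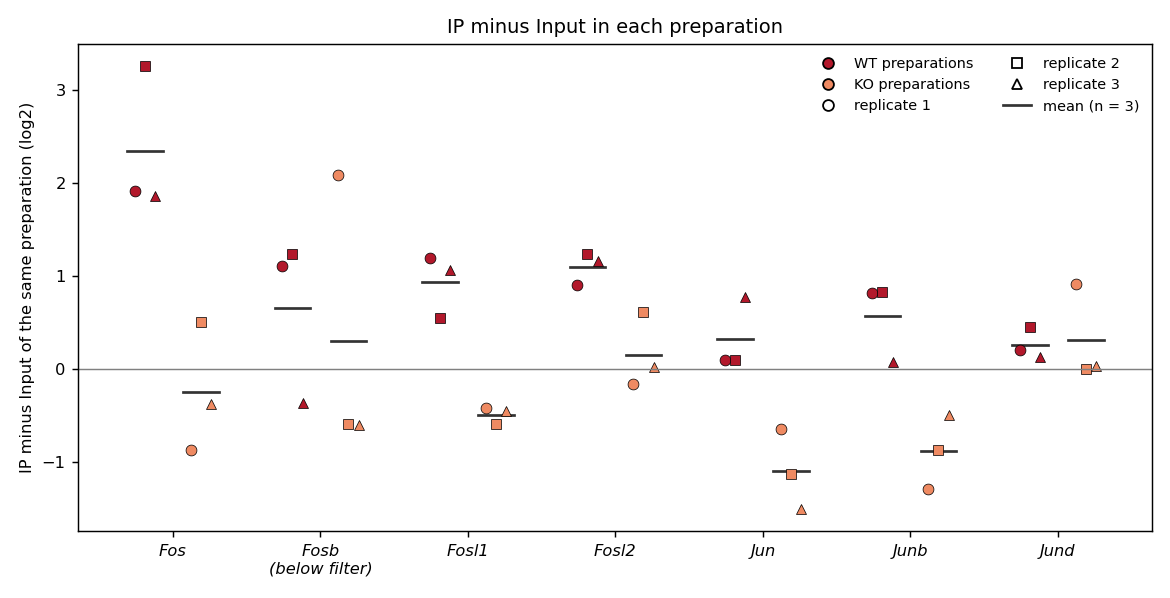
Difference between precipitate and input of the same preparation on the log2 scale (vertical axis) for each member, wild-type preparations left and knockout preparations right, with 1 point per preparation and a line at the mean (n = 3). For Fosl1, Jun and Junb every wild-type point is above 0 and every knockout point below it, and for Jund the means of both genotypes are between 0.26 and 0.32.

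Over the 6 tested members, specific enrichment was positive for 5, with a median of 1.42, where 55.8% of all 9496 genes were positive and their median was 0.05. By limma at a Benjamini-Hochberg adjusted p under 0.05, 0 members were called, and 0.0105% of all genes were. At an unadjusted p under 0.05, 3 members were higher (Fosl1, Fosl2 and Jun) and 0 lower, against 1.83% and 0.147% of all genes. With the preparation as a replicate block 0 members were called (0.0211% of all genes), and with the number blocked separately in each fraction 1 was called, Fos (0.358% of all genes). The same-number values of 5 members were positive for all 3 numbers, as in 21.4% of all genes. For 3 members (Fosl1, Jun and Junb) all wild-type preparations were positive and all knockout preparations negative in IP minus input, as in 1.66% of all genes.

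**Figure D3:**
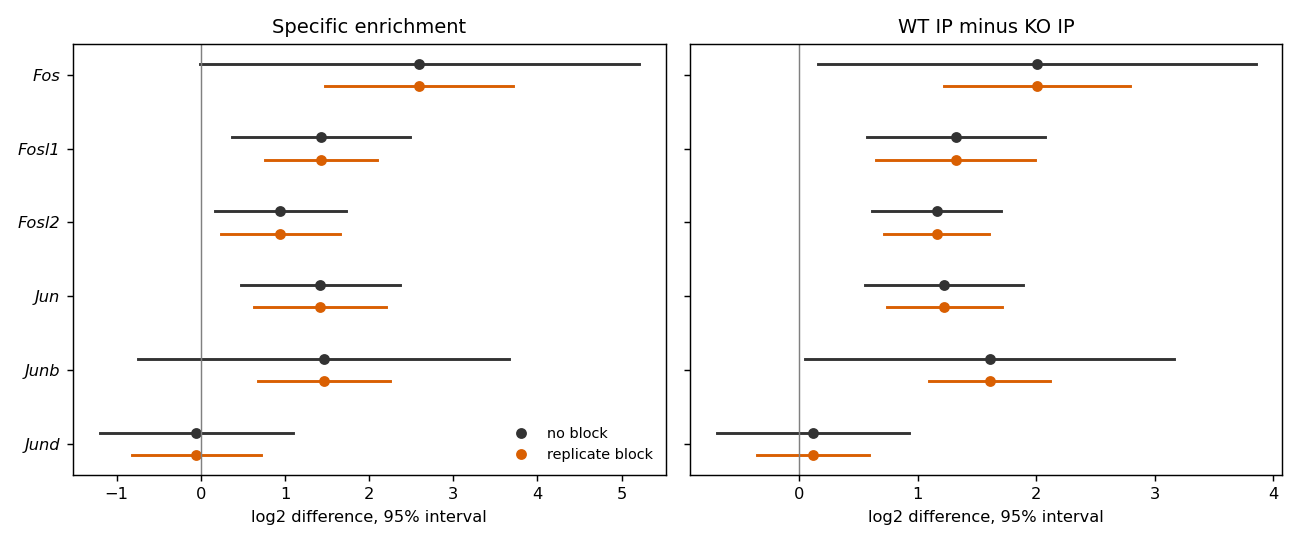
Specific enrichment (left) and the WT IP minus KO IP difference (right) on the log2 scale (horizontal axes) for the 6 tested members, with 95% intervals from the limma fit without a block (dark) and with the replicate block (orange), which was the preparation on the left and the replicate number on the right. The Fos interval narrows to 1.48 to 3.71 for specific enrichment and to 1.22 to 2.79 between precipitates, while Jund spans 0 in both panels.

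Set side by side, the WT IP and KO IP arrays gave positive differences for 6 of 6 tested members, with a median of 1.27, where the median of all genes was 0.04 and 54.1% were positive. Without a block 0 members were called, against 0.253% of all genes called higher, and 5 had an unadjusted p under 0.05, against 4.78% of all genes on the higher side. The precipitates did not overlap for 3 members (5.44% of all genes on the higher side): Fosl2 (1.16 ± 0.25 SE, 2.23-fold, adjusted p = 0.121), Jun (1.22 ± 0.31, 2.34-fold, adjusted p = 0.203) and Fosl1 (1.32 ± 0.34, 2.50-fold, adjusted p = 0.241). With the replicate number as a block 4 members were called higher, where 2.33% of all genes were. These were Junb (1.61, 3.05-fold, adjusted p = 0.00553), Fosl2 (adjusted p = 0.0141), Fos (2.01, 4.01-fold, adjusted p = 0.0162) and Jun (adjusted p = 0.0175). Without a block, leaving out 1 array gave 1.18 (without KO IP replicate 1) to 2.73 (without WT IP replicate 1) for Fos and 1.17 (without WT IP replicate 3) to 2.28 (without KO IP replicate 3) for Junb. Fosl1 missed the threshold with the number as a block (adjusted p = 0.0511) and Jund had an adjusted p of 0.872. With the number blocked separately in each fraction the same 4 were called (adjusted p of 0.00909 to 0.0276), where 3.58% of all genes were called higher.

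In WT IP against WT Input, which uses the same WT IP arrays, all 6 tested members were positive with a median of 0.75, against a median of -0.11 over all genes, of which 41.6% were positive. No member was called without a block (0 of 6, against 0.105% of all genes), and 3 had an unadjusted p under 0.05, against 4.58% of all genes on the higher side. WT IP and WT Input did not overlap for Fos, Fosl2 and Jun, 3 of the 6, against 7.72% of all genes on the higher side. Fosl2 had the smallest adjusted p (1.10 ± 0.25 SE, 2.14-fold, adjusted p = 0.137), followed by Fos (2.35 ± 0.85, 5.08-fold, adjusted p = 0.350) and Fosl1 (0.93 ± 0.34, adjusted p = 0.364). The same 3 were called higher with the preparation as a block (adjusted p = 0.0281, 0.0150 and 0.0371), where 2.41% of all genes were. With the number as a block Fos and Fosl2 were called (adjusted p = 0.00609 and 0.0101) and Fosl1 was not (0.0704), and 3.81% of all genes were called higher. Jun, Junb and Jund had values of 0.32, 0.57 and 0.26 and were not called in any of these fits. With 1 array left out Junb ran from 0.14 (without WT IP replicate 3) to 1.26 (without WT Input replicate 3) and Jun from 0.10 (without WT Input replicate 3) to 0.46 (without WT Input replicate 1).

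In the negative control, KO IP against KO Input, which shares its KO IP arrays with the comparison of precipitates, 2 members were positive and 4 negative, with a median of -0.37, against -0.21 over all genes, of which 34.1% were positive. No member was called without a block (0 of 6, as for 0% of all genes), and 1, Jun, had an unadjusted p under 0.05 on the lower side, against 8% of all genes, and its groups did not overlap, as for 10.1% of all genes on the lower side. With the preparation as a block Jun alone of the 6 was called lower, where 5.28% of all genes were, and with the number as a block Jun and Junb were, where 9.45% of all genes were. Fos, Fosl1, Fosl2 and Jund had values of -0.25, -0.49, 0.15 and 0.32 and were not called in any of these fits.

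The steady-state levels in KO Input against WT Input overlapped for all 7 members, whereas the groups did not overlap for 0.663% of all genes tested on the higher side and 0.958% on the lower. The differences of the 6 tested members ran from -0.21 (Fosl2) to 0.59 (Fos), 3 positive and 3 negative, where 53.9% of all genes were positive, and 0 were called (0% of all genes). Without a block none had an unadjusted p under 0.05, against 0.0316% of all genes on the higher side and 0.0211% on the lower. With the number as a block 0 were called (0% of all genes). The intervals were wide for the most variable genes, from -1.26 to 2.44 for Fos (95%) and from -1.70 to 1.41 for Junb, and narrower for Fosl2, from -0.76 to 0.33. With the number as a block the Fos interval became -0.19 to 1.37. The Fos difference of 0.59 lay at the 99.8th percentile of all genes tested. By limma with the number blocked separately in each fraction it had an unadjusted p of 0.047 and was not called. This input difference enters the specific enrichment of Fos, together with the 2.01 between the precipitates. With 1 array left out the Fos value ran from 0.014 (without KO Input replicate 3) to 1.11 (without KO Input replicate 1). Within numbers Fos was positive in 3 of 3 (0.58, 0.25 and 0.94), as were 16.1% of all genes, and Fosl2 and Jund were negative in 3 of 3, as were 13% of all genes.

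The order of the group means differed between members. For Fosl2 the gap of 1.10 between WT IP and the next group exceeded the larger SD of the 2 groups (0.14), and the other 3 groups stood within 0.21 of one another. For Fosl1 and Jun, WT IP led KO Input by 0.83 and 0.13, gaps larger than the SDs of these groups and without overlap, and KO IP was lowest, by 0.39 below WT Input for Fosl1, which was within the larger SD (0.55), and by 0.90 for Jun, which was above it (0.49). For Fos the lead of WT IP over KO Input was 1.76, above the larger SD of 1.32 but with overlapping arrays, and the other 3 groups did not differ beyond their spread. For Junb, Jund and Fosb no neighbouring means differed by more than the larger SD, which does not take the replicate number into account. For Junb, KO IP was below its neighbour KO Input in 3 of 3 preparations and was called lower with the number as a block (adjusted p = 0.0359), as given above.

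Arrays of the same replicate number tended to hold the same rank across groups for Fos, Jun, Junb and Jund. Replicate 1 was the lowest Fos array in 4 of 4 groups, replicate 3 the highest Junb array in 4 of 4, and for Jund replicate 1 was highest and replicate 3 lowest in 4 of 4. For Jun replicate 1 was highest in 4 of 4 groups and replicate 3 lowest in 3 of 4. Arrays of the same number also went together over all genes, with correlations of 0.453 to 0.936 after group means were removed. The share of all genes with such ranks was not counted, so the ranks are not particular to these members. Among the inputs the Fos level spanned 2.19 units in KO Input and 1.83 in WT Input, and the Junb level 1.59 and 2.23. The Jun level spanned 0.11 and 0.71, and the Fosl2 level 0.25 and 0.24. With the number as a block the residual SD was 0.51 for Fos, against 1.22 without it. It was 0.27 against 1.01 for Junb, 0.23 against 0.45 for Jund and 0.25 against 0.31 for Jun. For Fosl1 (0.42 against 0.39) and Fosl2 (0.20 against 0.18) the number did not lower it, whereas with the preparation as a block it was 0.18 for Fosl1 and 0.22 for Fosl2. Array controls also ran with the number. The poly-A controls were lowest in replicate 1 of each group, at 10.1 in WT IP, 10.2 in KO IP, 4.8 in KO Input and 4.8 in WT Input. The excess of the 3′ over the 5′ Gapdh signal was largest in replicate 3 of each group (2.34, 1.93, 0.27 and 0.40). Whether the ranks of the members go with these controls was not tested. The labels do not say what the numbers stand for beyond biological replicates.

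Patterns over the 12 arrays were compared by Pearson correlation, as a description in which arrays share replicate numbers and preparations. Fos was most like Csnk1g1 (0.96), Msl2 (0.95) and F3 (0.95), and Junb like Nfkbiz (0.94), Cxcl12 (0.94) and Ccn1 (0.93). Fosl2 was most like Cnot8 (0.97), which encodes a catalytic deadenylase of the CCR4-NOT complex, then Dhx35 (0.96) and Unc50 (0.95). Fosl1 was most like Klf2 (0.87), Socs7 (0.87) and Frmd4b (0.86), Jun like Gcc1 (0.90), Zfp346 (0.89) and Bcdin3d (0.88), and Jund like Thap7 (0.93), Fbxo42 (0.93) and Med22 (0.92). No member was among the 3 most like genes of another. Between members the correlations ran from -0.56 (Junb and Jund) to 0.70 (Fosl1 and Jun), with 0.05 for Fos and Jun.

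The other genes of the pathway were taken as lists by role, and the plot of specific enrichment by list shows them beside the family. AP-1 partners of the basic leucine zipper class, which dimerise with FOS or JUN proteins, had 8 tested genes, 6 of them positive, with a median specific enrichment of 0.26 against 0.05 for all genes, and 0 were called. Their largest values were those of the small MAF genes Mafg (0.71), Mafk (0.52) and Maff (0.46) and of Batf3 (-0.71). Between the precipitates Mafg was higher in WT IP than in KO IP by 0.89. It was not called without a block or with the number as a block (adjusted p = 0.168). With the number blocked separately in each fraction it was called (adjusted p = 0.018), 1 of the 8, where 3.58% of all genes were called higher. Mafk was higher in WT IP than in WT Input by 1.04 (adjusted p = 0.159, and 0.0240 with the preparation as a block, where 2.41% of all genes were called higher). In the negative control Batf3 was higher in KO IP than in KO Input by 0.90 (adjusted p = 0.293), and it was called with the preparation as a block (adjusted p = 0.0427, where 0.727% of all genes were called higher) and with the number as a block (adjusted p = 0.0272, where 1.85% were). Atf3, a stress-induced partner of JUN, had a specific enrichment of 0.21 and a WT IP minus KO IP difference of -0.08.

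The upstream route, the serum response factor and MAP kinase genes that switch on Fos and Jun, had 14 tested genes, 9 of them positive, with a median of 0.07 and 0 called. Its largest values were those of the SRF coactivators Mkl2 (0.58) and Mkl1 (0.57), Srf itself (0.43) and Creb1 (0.37). The genes of FOS and JUN protein turnover had 6 tested members, 5 of them positive, with a median of 0.53 and 0 called. Trib1, a pseudokinase adaptor of the COP1 ubiquitin ligase, had 1.03 and Det1, which links COP1 to its ligase complex, 0.998, ahead of Itch, a ubiquitin ligase for JUN (0.66), and Fbxw7, which recruits JUN to another ubiquitin ligase (0.39). Between the precipitates Trib1 and Det1 were called higher in WT IP with the number as a block (0.98 and 0.90, adjusted p = 0.0313 and 0.0362), 2 of the 6, where 2.33% of all genes were called higher, and not without it (0.540 and 0.449).

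AP-1 target genes had 11 tested members, 9 of them positive, with a median specific enrichment of 1.03, and 0 were called without a block or with either block. Their largest values were those of the chemokine gene Ccl2 (1.69), the growth factor gene Hbegf (1.33), the cytokine gene Lif (1.21) and the angiogenic factor gene Vegfa (1.12). Between the precipitates 0 were called without a block (0.253% of all genes were called higher) and 4 with the number as a block (2.33% of all genes), namely Hmox1 (1.24), Lif (1.47), Vegfa (1.41) and Hbegf (1.46), of which Hmox1, named after its values were seen, had the smallest adjusted p (0.00348). With the number blocked separately in each fraction Hmox1, Lif, Vegfa and Ccl2 (adjusted p = 0.0366) were called higher, where 3.58% of all genes were, Hbegf was not (adjusted p = 0.0733), and the growth factor gene Tgfb1 was called lower (-0.67, adjusted p = 0.0454), where 0.421% of all genes were. In WT IP against WT Input Hmox1 was not above its input (-0.38), whereas Lif, Vegfa, Hbegf and Ccl2 were above theirs. In KO IP against KO Input the Hmox1 value was -1.45, not called without a block (adjusted p = 0.508). It was called lower with the preparation as a block (adjusted p = 0.0155, where 5.28% of all genes were). With the number as a block it was also called lower (adjusted p = 0.00359, where 9.45% of all genes were). The AU-rich element binding proteins had 8 tested members, 5 of them positive, with a median specific enrichment of 0.11. Zfp36, whose product tristetraprolin directs AU-rich mRNAs to CCR4-NOT, had 3.48 and Zfp36l1 1.53, while Auh had 0.23 and Khsrp -0.16, and 0 were called. In WT IP against KO IP 1 of the 8, Zfp36, was called without a block (3.33 ± 0.56 SE, adjusted p = 0.0368) and with the number as a block. With the number blocked separately in each fraction Zfp36 and Zfp36l1 (1.59) were called (adjusted p = 0.00875 for both). In WT IP against WT Input Zfp36 was above its input (2.55) and Zfp36l1 was not (-0.10). In KO IP against KO Input their values were -0.93 and -1.63. There Zfp36l1 was called lower with the number as a block (adjusted p = 0.0426, where 9.45% of all genes were). It was not called with the preparation as a block (adjusted p = 0.0769).

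**Figure D4:**
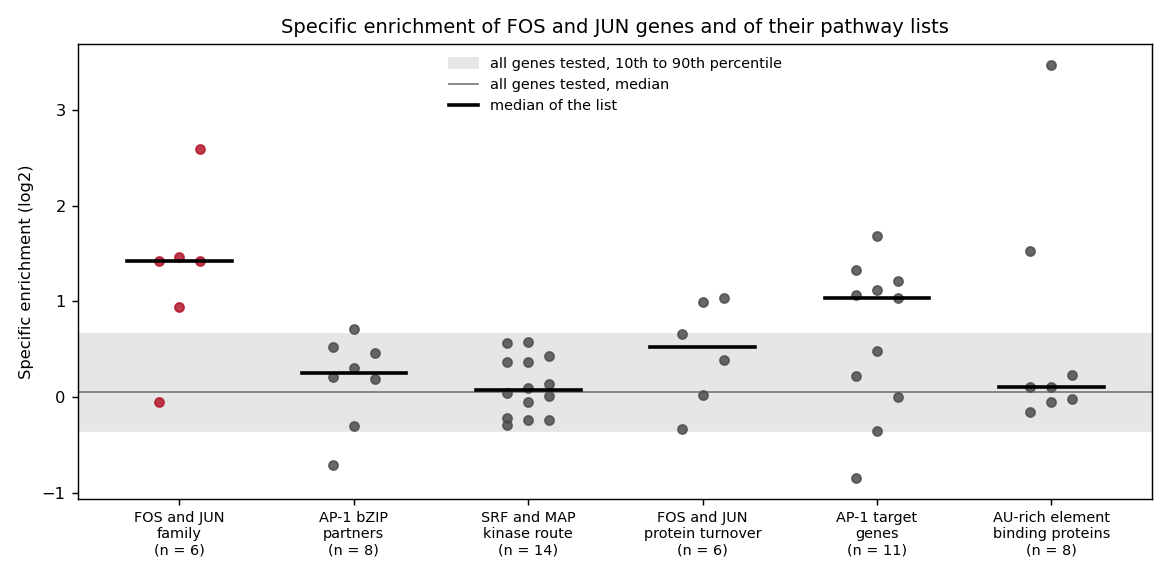
Specific enrichment on the log2 scale (vertical axis) of each tested gene of the FOS and JUN family and of 5 pathway lists, with the list median as a bar, and the median and the 10th to 90th percentile range of all tested genes as a line and a grey band. The family median is 1.42 and that of the AP-1 target genes 1.03, the other 4 medians lie between 0.07 and 0.53, and the band runs from -0.36 to 0.66.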

How the data were processed

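The table holds 12 columns, 1 per array, and 16539 probe sets of a gene-based chip definition, of which 15780 carried 1 gene symbol. The authors deposited log2 values, as shown by their range, and how they corrected background, normalized and summarised probes is not stated in the labels. Scanner files and detection calls were not used here, so no other background correction and no slide block was tried. The tested genes were those whose 12-array mean was at or above the 40th percentile of all probe sets (5.57). Differences were fitted with limma 3.58.1 in R 4.3.3 as 4 group means over all arrays (8 residual degrees of freedom) with empirical Bayes moderation, and a gene was called at a two-sided Benjamini-Hochberg adjusted p under 0.05 over the 9496 genes. The fit without a block was tested on simulated data with independent arrays, for WT IP against WT Input only. The fits with a block were not tested in this way. Arrays give no depth, so precision is limited by their number.

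The replicate numbers were checked for pairing: after group means were removed, arrays of the same number in different groups correlated at 0.453 to 0.936 over genes (18 pairs) and others at -0.711 to 0.068, so the numbers pair the samples. That an IP and its input share a preparation comes from the series text, and the sharing between genotypes from the values. The replicate block was therefore the preparation for IP against input and for specific enrichment (4 residual degrees of freedom), and the number between genotypes (6). A further block was the number within each fraction for specific enrichment and between genotypes (4), and the number over all 12 arrays for IP against input (6). Other alternatives were no filter on dim probe sets, quantile normalization and leaving out each array.

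The members and gene lists were chosen with earlier results of these data known. All 7 members are named throughout, up to 4 genes per list by the size of specific enrichment, and for likeness the 3 genes with the highest correlation. Atf3, Hmox1, Tgfb1 and Cd68 were named after their values were seen. Some listed genes were not analysed here. Promoters came from RefSeq, GRCm38.p6. Figures were drawn with matplotlib 3.10.9 in Python 3.11.15.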

Additional observations from a re-analysis of the deposited data

Results flagged for a closer look

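In 3 members every wild-type preparation had a positive IP minus input difference and every knockout preparation a negative one, a pattern that 1.66% of all genes tested showed. These were Fosl1, with a specific enrichment of 1.43, Jun with 1.42 and Junb with 1.46. The difference between genotypes was tested as specific enrichment and none of the 3 was called by limma (adjusted p = 1.0 without a block, and 0.194, 0.252 and 0.238 with the preparation as a block). The groups of 3 arrays are too small for a test of single outlying arrays.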

How the results depend on the processing

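Of the 360 member values with 1 array left out, 344 kept their sign and their side of the threshold, 16 turned sign and 0 became called, and the count of called members stayed at 0 in each of the 5 comparisons. Values that turned sign ranged over -0.33 to 0.33 for Jund in specific enrichment, -0.77 to 0.58 for Fos and -0.066 to 0.59 for Jund in KO IP against KO Input, and -0.16 to 0.49 for Jund in WT IP against KO IP. In KO Input against WT Input they ranged over -0.13 to 0.41 for Fosl1, -0.025 to 0.33 for Jun, -0.62 to 0.54 for Junb and -0.33 to 0.014 for Jund. Without the filter Fosb was tested as well, and 0 members were called in each comparison, as after quantile normalization. Quantile normalization turned Fos in KO IP against KO Input to 0.006, and it moved the median of all genes there to -0.04, against -0.21 as deposited. The replicate block moved the count of called members to 3 in WT IP against WT Input, 1 in KO IP against KO Input and 4 in WT IP against KO IP, each against 0 without it. On the side where these members were called, it called 2.41%, 5.28% and 2.33% of all genes. The block by number within each fraction, or over all arrays, moved the count to 1 in specific enrichment and to 2, 2 and 4 in those comparisons. On the same sides it called 0.358%, 3.81%, 9.45% and 3.58% of all genes. The replicate block changed no call in specific enrichment or between the inputs. Over all alternatives the adjusted p of specific enrichment ran from 0.0433 to 1.0 for Fos, 0.138 to 1.0 for Jun and 0.152 to 1.0 for Junb, and from 0.194 to 1.0 for Fosl1 and 0.157 to 1.0 for Fosl2.

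Over all genes, the calls numbered 1 in specific enrichment (2 and 34 with the blocks, 0 to 4 with 1 array left out), 10 in WT IP against WT Input (667 and 1108, 2 to 14, and 16 after quantile normalization), 0 in KO IP against KO Input (570 and 1073, 0 to 2, and 52 without the filter) and 24 in WT IP against KO IP (233 and 380, 4 to 16). Background correction could not be varied.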
